A study of Rattus norvegicus with 18 samples.

Results

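The genes described here encode collagens, integrins, laminins, keratins and small matrix proteoglycans, with vimentin. Members were taken by symbol. They are genes named Col followed by a digit, genes beginning with Itga, Itgb, Lama, Lamb or Lamc, genes named Krt followed by a digit, and Ogn, Omd, Dcn, Lum, Bgn and Vim. Of 16581 genes named on the array, 105 were members. A member counted as measured when the 3 arrays of some group all read it well above background, and 52 did. The measured members were 10 of 23 collagens, 14 of 22 integrin genes, 5 of 7 laminin chains, 18 of 47 keratins and 5 of the 6 single genes. The other 53 members were too dim, and 30 of them lay well above background on no array. The symbol rule also takes Itgb1bp1, Itgb1bp2, Itgb3bp and Itgbl1, which are named after integrins but are not integrin subunits.

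Collagens and laminins are structural proteins of the extracellular matrix, with laminins and the network collagens forming basement membranes. Integrins are paired receptors, one alpha and one beta chain, that hold a cell to that matrix and pass signals inward. Keratins are the intermediate filaments of epithelial cells, in hepatocytes mainly Krt8 and Krt18, while bile duct cells also carry Krt7 and Krt19. Vimentin is the intermediate filament of mesenchymal cells. Osteomodulin (Omd), osteoglycin (Ogn), decorin (Dcn), lumican (Lum) and biglycan (Bgn) are small leucine-rich matrix proteins that bind collagen fibrils, and in liver decorin, biglycan and the fibrillar collagens are known mainly as products of stellate cells and fibroblasts.

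Gene expression was read on 18 one-colour arrays of primary hepatocytes from male Sprague Dawley rats, thawed from frozen stock and cultured for 24 h before a further 24 h of exposure. The groups, of 3 cultures each, were DDMB, CDMB and CDEB at 300 µM with the DMSO control VC_1, and DDEB at 300 µM with the DMSO control VC_2, which belongs to another chip lot. The compounds are p-dialkoxy chlorobenzenes per the study title and are otherwise known here only by these codes. The study compared their modes of action. The labels call the 3 cultures of a group independent experiments without saying whether more than one animal was used, so the p-values rest on the variation among cultures, which may be technical.

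The promoters of the 3 members that a test called changed, Ogn, Omd and Col5a3, are shown because they let a reader set the sequence upstream of the called genes side by side. Each is the 250 bases before the gene start on the minus strand, from RefSeq's promoter table on build GRCr8, written 5′ to 3′. Capitals mark matches, on either strand, to 4 motifs, which are TATAAA for the TATA box, CCAAT for the CCAAT box, GGGCGG for the GC box and TGANTCA for the AP-1 site.
Ogn, chr17:15258996-15259245: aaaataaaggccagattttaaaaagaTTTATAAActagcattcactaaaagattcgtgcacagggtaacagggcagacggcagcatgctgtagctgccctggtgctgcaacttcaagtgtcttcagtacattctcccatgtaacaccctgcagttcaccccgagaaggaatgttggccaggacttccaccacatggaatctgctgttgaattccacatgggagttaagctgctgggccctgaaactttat
Omd, chr17:15274871-15275120: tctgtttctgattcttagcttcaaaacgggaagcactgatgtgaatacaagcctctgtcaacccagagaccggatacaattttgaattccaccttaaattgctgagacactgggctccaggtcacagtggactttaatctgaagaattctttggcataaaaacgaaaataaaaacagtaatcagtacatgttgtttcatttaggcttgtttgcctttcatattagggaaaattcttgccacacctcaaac
Col5a3, chr8:27625949-27626198: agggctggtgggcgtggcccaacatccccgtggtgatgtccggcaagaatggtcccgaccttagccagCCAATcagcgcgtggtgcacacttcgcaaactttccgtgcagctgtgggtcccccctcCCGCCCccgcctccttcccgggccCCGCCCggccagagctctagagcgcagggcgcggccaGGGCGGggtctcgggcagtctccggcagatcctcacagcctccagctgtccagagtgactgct

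The G and C content of these windows was 46% for Ogn, 38.8% for Omd and 68.8% for Col5a3. The Ogn window held TATAAA at 222 bases before the start on the gene's strand and at 224 bases on the opposite strand, and these matches overlap. The Col5a3 window held CCAAT at 182 bases and GGGCGG at 63 bases on the gene's strand, and GGGCGG at 124 and 100 bases on the opposite strand. None of the 4 motifs was found in the Omd window. Of 33469 promoters of this length, 12.9% hold the TATA box, 34% the CCAAT box, 30.5% the GC box and 6.34% the AP-1 site. Ogn and Omd are neighbours on chromosome 17, and both lie inside the gene Cenpp together with Aspn and Ecm2, which encode related matrix proteins. Aspn was on the array but too dim to measure.

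Levels are log2 signal relative to the array's 75th percentile, and differences are log2 fold changes. The share of spots well above background was 61.0% to 64.2% per array, and 0 probe spots were saturated. DDMB and VC_1 shared 1 slide, CDMB and CDEB shared another, and DDEB lay on 2 slides, one of them with VC_2. The slide and the compound therefore cannot be told apart in CDMB and CDEB against VC_1 and in DDMB against CDMB or CDEB. The arrays DDMB 2, DDEB 3, VC_1 3 and VC_2 3 stood apart from the rest of their groups. On each of them 7 to 10 members lay more than 0.5 log2 above their group mean, compared with 0 to 3 on the other 14 arrays. Members high on all of these 4 arrays included Bgn, Col1a2, Itgb4 and Krt20, so results on such members are given with and without those arrays. All 10 hepatocyte markers, such as Alb, were measured, and Ass1 (0.65) and Tat (0.68) rose with DDMB. The median change of the 10 was 0.01 with DDMB, 0.08 with DDEB, 0.26 with CDMB and 0.19 with CDEB. The largest was 0.78 with CDMB and 0.69 with CDEB. By limma 2 markers were called with DDMB and 0 with the other compounds.

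Omd fell with DDMB and with DDEB, and Ogn fell with DDMB. With DDMB, Omd lay at 2.07, 2.40 and 2.23 in the treated arrays, against 2.77, 2.79 and 3.07 in VC_1. With DDEB it lay at 2.07, 2.11 and 2.00, against 2.76, 2.72 and 2.91 in VC_2. Every treated array was below every control array in both comparisons. Omd fell by 0.64 ± 0.10 with DDMB (log2, SE, n = 3; limma, adjusted p = 0.00668), a 1.56-fold lower signal. It fell by 0.73 ± 0.10 with DDEB (limma, adjusted p = 0.00519), a 1.66-fold lower signal. A limma fit on the arrays of each comparison alone, with the spread of only those groups, gave adjusted p = 0.444 for DDMB and 0.497 for DDEB. The authors' deposited tables gave -0.74 for DDEB (adjusted p = 0.493). They hold VC_2 and DDEB apart from the other groups, so that fit also had the spread of only those 2 groups. Without the 4 arrays that stood apart the changes were -0.63 (adjusted p = 0.00404) with DDMB and -0.65 (adjusted p = 0.00653) with DDEB.

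Omd also lay lower with the other compounds, without passing the test. CDMB arrays held 2.52, 2.40 and 2.36 and CDEB arrays 2.57, 2.57 and 2.60, all below the 3 VC_1 arrays. The differences were -0.45 with CDMB (limma, adjusted p = 0.118) and -0.30 with CDEB (limma, adjusted p = 0.229). A second Omd probe was well above background on all 18 arrays. It differed by -0.67 with DDMB, -0.54 with DDEB, -0.35 with CDMB and -0.28 with CDEB, and again every treated array lay below every control array.

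Ogn lay at -3.98, -3.04 and -3.21 with DDMB, against -2.32, -2.27 and -2.04 in VC_1, with no overlap. It fell by 1.20 ± 0.23 (log2, SE, n = 3; limma, adjusted p = 0.0308), a 2.30-fold lower signal. That call was lost when VC_1 1 (adjusted p = 0.0939), VC_1 2 (0.112), VC_1 3 (0.101) or DDMB 3 (0.0804) was left out. It was also lost with quantile normalization (0.052), no filter (0.0845), the mean of probes (0.193), only the compared arrays (0.461) and the deposited tables (0.073). A second Ogn probe, above background on 17 arrays, differed by -0.81, and there the DDMB arrays at -4.97, -3.20 and -4.10 overlapped the VC_1 arrays at -3.29, -3.64 and -2.90.

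With DDEB, Ogn lay at -3.01, -2.88 and -2.81, against -2.46, -2.002 and -1.93 in VC_2, a difference of -0.77 (limma, adjusted p = 0.133). All 3 DDEB arrays were below all 3 VC_2 arrays. CDMB arrays lay at -2.71, -3.37 and -3.28, also below every VC_1 array (-0.91, limma, adjusted p = 0.181). CDEB arrays lay at -2.51, -2.24 and -2.31 and overlapped VC_1 (-0.15, limma, adjusted p = 0.793). The second Ogn probe differed by -0.17 with DDEB, on arrays at -4.21, -2.44 and -3.47 against -3.13, -3.51 and -2.97 in VC_2, and by -0.49 with CDMB and -0.19 with CDEB. Its treated and control arrays overlapped with each of these compounds. Ippk, a kinase gene next to this cluster on chromosome 17, passed the test with no compound, with differences of 0.09 for DDMB, 0.07 for DDEB, 0.23 for CDMB and -0.01 for CDEB.

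**Figure D1:**
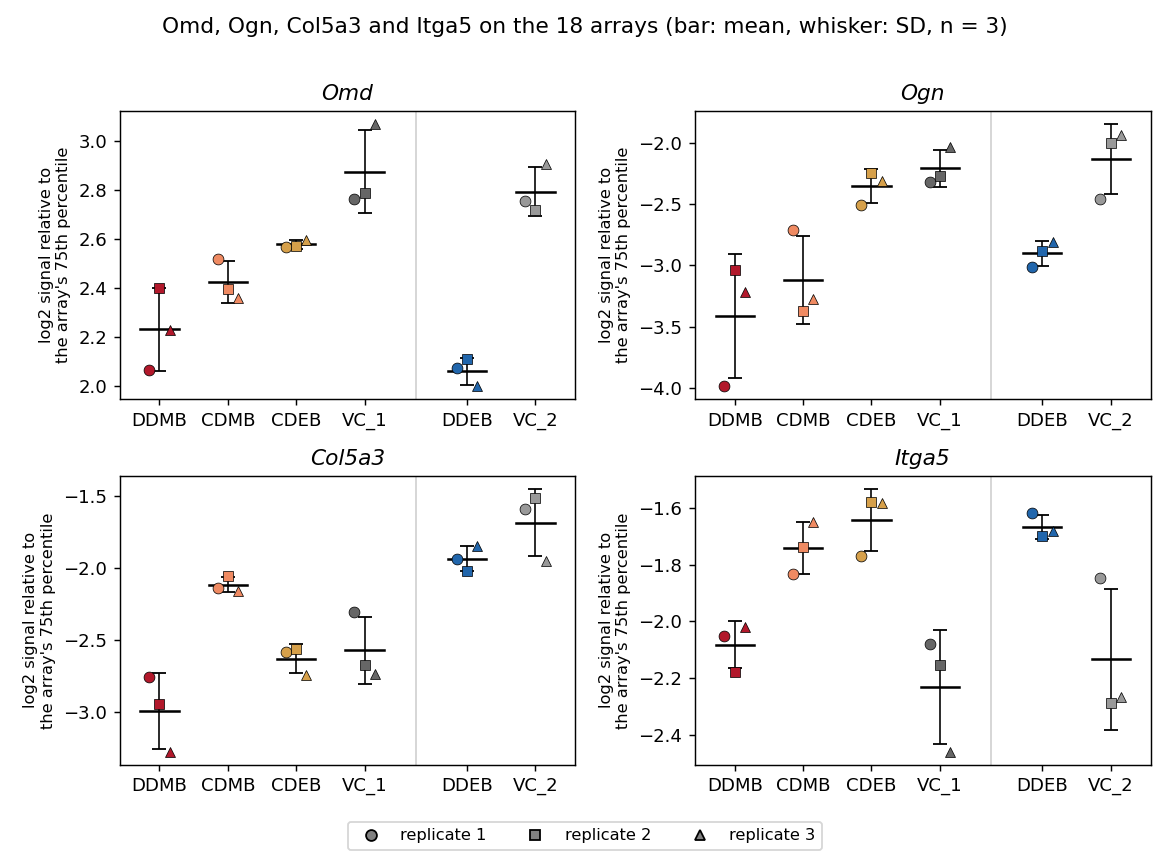
Level of Omd, Ogn, Col5a3 and Itga5 on each array (log2 signal relative to the array's 75th percentile), with each point 1 array, the bar the group mean and the whisker the SD (n = 3). The DDMB and DDEB points of Omd lie below all points of their own DMSO control.

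Decorin, biglycan and vimentin passed the test with no compound. Dcn lay at -2.08, -3.36 and -3.67 with DDMB, -2.51, -2.50 and -3.10 with CDMB and -2.66, -2.64 and -2.56 with CDEB, against -3.02, -2.99 and -3.81 in VC_1. DDMB and CDMB arrays overlapped the controls, while the CDEB arrays all lay above them. The differences were 0.23 for DDMB, 0.57 for CDMB and 0.65 for CDEB (limma, adjusted p = 0.934, 0.515 and 0.468). Bgn, one of the members high on the 4 arrays that stood apart, lay at -0.49, -0.37 and -0.48 with CDMB, against 0.27, -0.01 and 1.09 in VC_1 (-0.90, limma, adjusted p = 0.389). Without those arrays the difference was -0.58 (adjusted p = 0.307). Vim, the brightest of these genes, differed by -0.05 with DDMB, -0.18 with DDEB, -0.02 with CDMB and 0.06 with CDEB. Lum lay well above background on no array.

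In bulk samples fewer cells of a type and less RNA per cell cannot be told apart. Of 12 stellate cell and fibroblast markers, 7 were measured, and Gfap, Pdgfra, Lrat, Ngfr and Thy1 were too dim. The summed linear signal of the 7 ranged over 5.03 to 7.00 with DDMB, 4.50 to 6.11 with CDMB and 9.38 to 10.1 with CDEB, against 7.28 to 11.2 in VC_1. It ranged over 6.93 to 10.2 with DDEB, against 6.89 to 11.1 in VC_2. The DDMB and CDMB sums lay below VC_1, and the DDEB and CDEB sums overlapped their controls. A linear sum weighs the brightest markers most. The median log2 change of the 7 was 0.15 with DDMB, -0.05 with CDMB, 0.09 with DDEB and 0.22 with CDEB. Single markers ran from -0.75 to 0.94 with DDMB and from -0.75 to 0.71 with CDMB. They ran from -0.15 to 1.20 with DDEB and from -0.01 to 0.67 with CDEB. None of the 7 markers passed the test with any compound. The 3 measured mesothelial markers (of 4 on the array) summed to 1.71 to 1.82 with DDMB, against 1.95 to 2.15 in VC_1, and to 1.68 to 1.74 with DDEB, against 1.71 to 1.78 in VC_2. With CDMB they summed to 2.03 to 2.09 and with CDEB to 1.92 to 2.02, both overlapping VC_1. Their median log2 change was -0.27 with DDMB, -0.17 with DDEB, -0.11 with CDMB and -0.21 with CDEB. The 3 ran from -1.49 to -0.09 with DDMB and from -1.24 to 0.19 with CDMB. With DDEB they ran from -0.31 to 0.12 and with CDEB from -0.49 to 0.18. None of the 3 passed the test with any compound. Of endothelial markers 4 of 9 on the array were measured, with Pecam1, Stab2, Lyve1, Tek and Flt1 too dim, and of macrophage markers 3 of 10, and none of these passed the test with any compound. The part of other cell types in the Ogn and Omd results was not tested.

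Across all 52 members few passed the test. DDMB called 2 members against VC_1, both lower, where 0.556% of all genes tested were called and 0.329% were called lower. DDEB called 1 against VC_2, also lower, where 0.987% of all genes were called and 0.269% were called lower. CDMB and CDEB each called 0 by limma, where 0.0417% and 0.134% of all genes were called. The called members, Ogn and Omd, are among the 6 genes taken by name. Members were chosen with earlier results of these data known, so these counts beside the shares of all genes carry no weight. No collagen, integrin gene, laminin or keratin was called against a control. At an unadjusted p under 0.05 stood 6 members for DDMB, 8 for DDEB, 13 for CDMB and 4 for CDEB. Of all 21574 genes, 2136, 3278, 2863 and 2870 stood there in the same order. The median difference of the members was -0.01 for DDMB, 0.00 for DDEB, -0.02 for CDMB and -0.01 for CDEB, compared with 0.01, 0.02, 0.01 and 0.01 over all genes. Itgam, Krt15 and Krt75 were well above background on no array of DDMB, CDMB, CDEB or VC_1. They are included in the counts and medians against VC_1, here and below.

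Groups that did not overlap were counted as well. With DDMB 1 member lay higher and 4 lower on every treated array, 9.62% of the members. For all genes the share was 14.2%, with 8.55% higher and 5.61% lower. With DDEB 5 lay higher and 3 lower (15.4%), and of all genes 16.5%, with 10.5% higher and 6.00% lower. With CDMB 4 lay higher and 13 lower (32.7%), and of all genes 25.5%, with 13.0% higher and 12.5% lower. With CDEB 7 lay higher and 7 lower (26.9%), and of all genes 29.3%, with 15.8% higher and 13.5% lower.

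**Figure D2:**
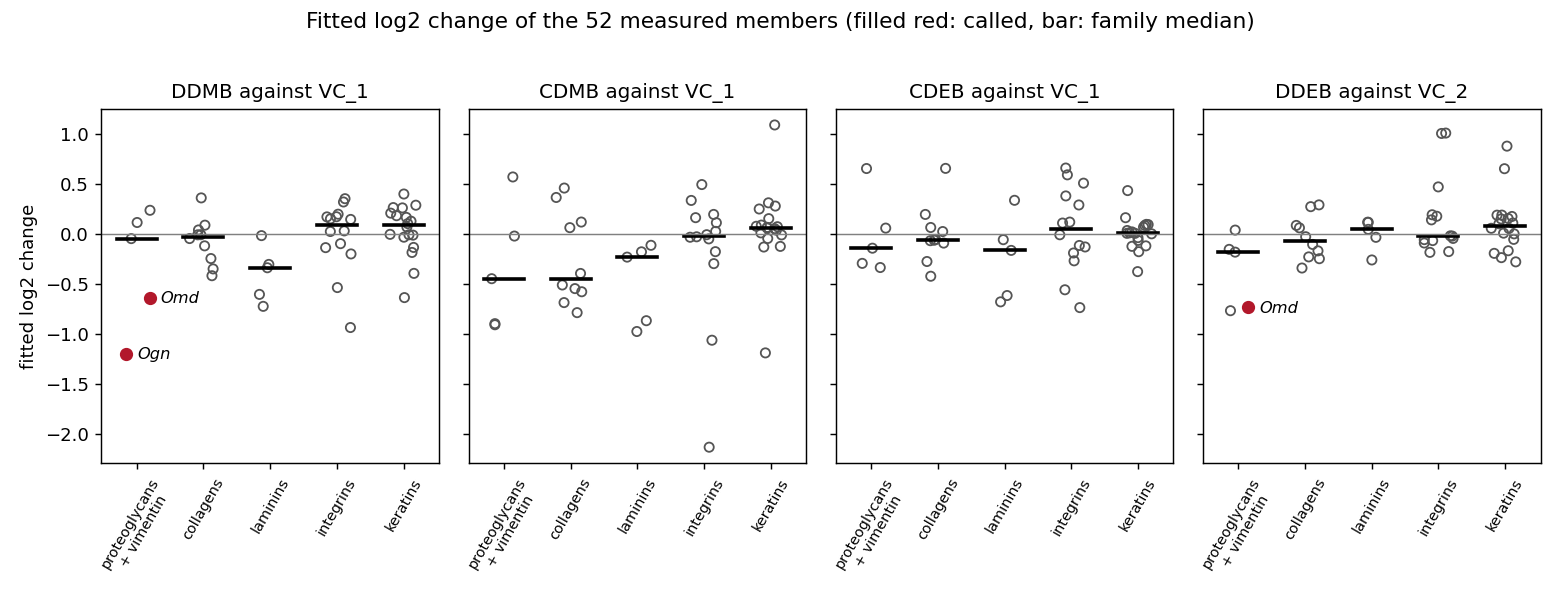
Fitted log2 change of the 52 measured members, by family, in 4 panels (DDMB, CDMB and CDEB against VC_1, DDEB against VC_2), with red filled points called by limma and the bar the family median. Omd and Ogn are the called points with DDMB and Omd the called point with DDEB.

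Collagens passed no test against a control. The family median was -0.03 with DDMB, -0.07 with DDEB, -0.46 with CDMB and -0.06 with CDEB, over 10 genes. Without VC_1 3 the median was 0.05 with DDMB, -0.19 with CDMB and 0.13 with CDEB. For DDMB this leaves out a high control array and keeps the high treated array DDMB 2. Without all 4 arrays that stood apart the median was -0.14 with DDMB, -0.06 with DDEB, -0.19 with CDMB and 0.13 with CDEB. Col4a1, a basement membrane chain, lay at -1.44, -1.47 and -1.62 with CDMB, against -0.95, -0.98 and -0.24 in VC_1. Every CDMB array was below every VC_1 array. The difference was -0.79 (limma, adjusted p = 0.344), and -0.55 (adjusted p = 0.134) without the 4 arrays that stood apart. Col3a1, a fibrillar chain, differed by -0.55 with CDMB (limma, adjusted p = 0.178) and -0.34 with DDEB (limma, adjusted p = 0.244). Col1a2, the second chain of type I collagen, differed by -0.69 with CDMB and -0.43 with CDEB (limma, adjusted p = 0.442 and 0.629), and by 0.09 with DDMB. Without the 4 arrays the CDMB difference was -0.29 and the CDEB difference -0.03. Its partner Col1a1 was above background on at most 5 arrays and was not measured. Col16a1 differed by -0.58 with CDMB (limma, adjusted p = 0.318), -0.35 with DDMB and -0.23 with DDEB.

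Col18a1, the source of endostatin and the brightest collagen, lay at 5.34, 5.33 and 5.41 with DDEB, against 5.00, 5.20 and 5.07 in VC_2. All 3 DDEB arrays were higher. The difference was 0.27 (limma, adjusted p = 0.176). Col15a1, a relative of Col18a1, differed by 0.36 with DDMB and 0.29 with DDEB (limma, adjusted p = 0.677 and 0.584), and Col2a1, the cartilage fibril collagen, by 0.65 with CDEB (limma, adjusted p = 0.401).

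Col5a3, a minor fibril chain, was called between compounds only. It lay at -2.75, -2.94 and -3.27 with DDMB, -2.14, -2.05 and -2.16 with CDMB and -2.58, -2.56 and -2.74 with CDEB, against -2.30, -2.67 and -2.74 in VC_1. The DDMB arrays were the lowest and the CDMB arrays the highest. Against VC_1 the differences were -0.42 with DDMB (limma, adjusted p = 0.286) and 0.46 with CDMB (limma, adjusted p = 0.246). With DDEB it lay at -1.93, -2.02 and -1.84, against -1.59, -1.51 and -1.95 in VC_2 (-0.25, limma, adjusted p = 0.425).

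The 5 measured laminin chains lay below 0 with both DDMB and CDMB, without a call, and 4 of them with DDMB when VC_1 3 was left out. Their median was -0.34 with DDMB, 0.04 with DDEB, -0.23 with CDMB and -0.17 with CDEB. Without the 4 arrays that stood apart all 5 lay below 0 with DDMB and with CDMB. The median was then -0.48 with DDMB, -0.11 with DDEB, -0.305 with CDMB and -0.04 with CDEB. Lamb2, a beta chain, lay at -3.17, -2.21 and -3.10 with DDMB, -3.24, -3.01 and -3.02 with CDMB and -2.85, -2.82 and -2.84 with CDEB, against -2.42, -2.33 and -1.91 in VC_1. CDMB and CDEB arrays all lay below the controls, and DDMB 2 overlapped them. The differences were -0.61 with DDMB, -0.87 with CDMB and -0.62 with CDEB (limma, adjusted p = 0.542, 0.272 and 0.392). Without the 4 arrays that stood apart, chosen after seeing the data, Lamb2 differed by -0.76 with DDMB (adjusted p = 0.0266).

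Lamb3 is a chain of the laminin of epithelial basement membranes. It differed by -0.34 with DDMB and 0.33 with CDEB (limma, adjusted p = 0.566 and 0.422). Lama5, an alpha chain, differed by -0.31 with DDMB (limma, adjusted p = 0.331), and Lamc1, the brightest laminin, by -0.02 with DDMB and 0.11 with DDEB.

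Integrin genes had medians of 0.09 with DDMB, -0.02 with DDEB, -0.02 with CDMB and 0.05 with CDEB over 14 genes, and none passed the test. Itgb1, the beta chain shared by most matrix receptors and the brightest integrin, differed by 0.02 with DDMB, -0.02 with DDEB, -0.18 with CDMB and -0.19 with CDEB. Itga5, which pairs with Itgb1 as the fibronectin receptor, lay at -1.62, -1.70 and -1.68 with DDEB, against -1.85, -2.29 and -2.27 in VC_2. It lay at -1.83, -1.74 and -1.65 with CDMB and -1.77, -1.58 and -1.58 with CDEB, against -2.08, -2.15 and -2.46 in VC_1. All arrays of these 3 compounds lay above their controls, and the DDMB arrays at -2.05, -2.18 and -2.02 overlapped VC_1. The differences were 0.47 with DDEB, 0.49 with CDMB, 0.59 with CDEB and 0.15 with DDMB. The limma adjusted p was 0.0892 for DDEB, 0.173 for CDMB and 0.0812 for CDEB. For DDEB it was 0.0342 when VC_2 1 was left out.

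Itgb4, the partner of the alpha-6 chain in hemidesmosomes and a member high on the 4 arrays, differed by -1.07 with CDMB and -0.74 with CDEB (limma, adjusted p = 0.374 and 0.517). Without those arrays they were -0.69 and -0.36. Itga8, an alpha chain known from mesenchymal cells, was not well above background on any CDMB array and lay at least 2.24-fold lower there (limma, adjusted p = 0.222), the bound being set against the lowest signal well above background. Itga8 passed the filter on dim probes only through VC_1, so a fall against VC_1 was favoured in advance and carries no weight. Its DDMB arrays at -7.63, -4.75 and -5.71 spread over more than the difference from VC_1 at -5.15, -5.25 and -4.87. With DDEB it differed by 1.01, on arrays at -3.31, -5.62 and -4.73. Itgbl1, which is not an integrin subunit, was not well above background on any VC_2 array. Its measured means were -4.37 with DDEB and -5.37 in VC_2 (limma, adjusted p = 0.208), and without the 4 arrays the difference was 0.82 (adjusted p = 0.0391).

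Keratins passed no test, and the hepatocyte pair Krt8 and Krt18 differed by less than 0.2 log2 from DMSO with every compound. Krt18, the brightest of the 18 measured keratins, lay at 8.93, 8.72 and 8.81 with DDMB, 8.84, 8.94 and 8.86 with CDMB and 9.12, 8.95 and 8.88 with CDEB, against 8.95, 8.89 and 8.64 in VC_1. The groups overlapped. It lay at 9.63, 9.54 and 9.81 with DDEB, against 9.59, 9.57 and 9.37 in VC_2. The differences ran from -0.01 with DDMB to 0.16 with CDEB. Krt8, its partner, differed by 0.13 with DDMB, -0.17 with DDEB, 0.07 with CDMB and 0.00 with CDEB. Family medians were 0.08, 0.08, 0.06 and 0.01 for DDMB, DDEB, CDMB and CDEB.

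Krt20, a keratin of the gut epithelium, lay at -4.17, -4.21 and -3.86 with CDMB, against -3.56, -3.51 and -1.60 in VC_1 (-1.19, limma, adjusted p = 0.395). The VC_1 array at -1.60 is one of the 4 that stood apart, and without those the difference was -0.55 (adjusted p = 0.183). Krt71 differed by 0.88 with DDEB, on arrays at -3.84, -1.67 and -3.80 of which 1 was high (limma, adjusted p = 0.329). Krt4 differed by 0.65 with DDEB (limma, adjusted p = 0.277) and -0.40 with DDMB (limma, adjusted p = 0.722). Krt4 also passed the filter only through VC_1, so its fall with DDMB was favoured in advance. Krt7, the bile duct keratin, differed by 0.31 with CDMB (limma, adjusted p = 0.541). Krt80 differed by -0.28 with DDEB (limma, adjusted p = 0.779). Krt19 was above background on 1 array and was not measured. Some keratin probes disagreed with a second probe of the gene: for Krt33a the probe used was above background on 18 arrays and the other on 2.

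**Figure D3:**
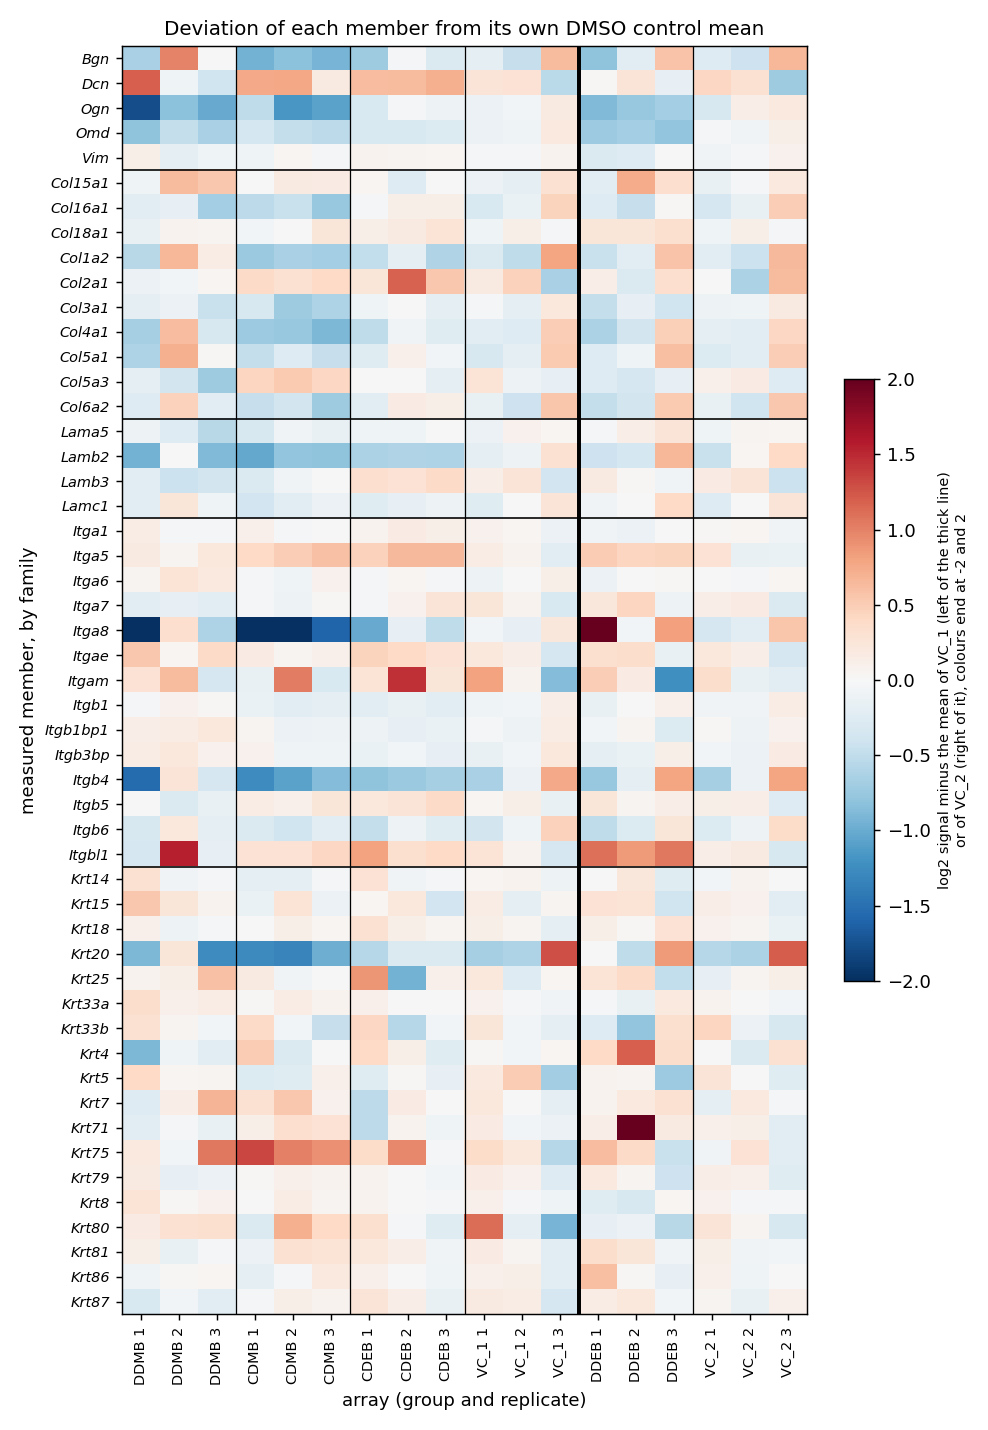
Deviation of 51 of the measured members from the mean of its own DMSO control (log2), by array, with families in blocks. On DDMB 2, DDEB 3, VC_1 3 and VC_2 3 the values of Bgn, Col1a2, Itgb4 and Krt20 are high for their group, and Itgam, Krt15 and Krt75 were not well above background on the arrays left of the thick line.

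Without the 4 arrays that stood apart, an alternative chosen after seeing the data, 3 members were called with DDMB (Lamb2, Ogn and Omd) and 2 with DDEB (Itgbl1 and Omd), and 0 with CDMB or CDEB. All genes called were then 342 with DDMB, 334 with DDEB, 60 with CDMB and 78 with CDEB. The summed signal of 5 bile duct markers, of 7 on the array, was 3.19 to 5.07 with DDMB, 3.23 to 3.39 with CDMB and 3.23 to 3.35 with CDEB, against 3.51 to 5.27 in VC_1, and 3.79 to 5.00 with DDEB, against 3.47 to 4.98 in VC_2. The hepatocyte markers summed to 1881 to 2482 with DDMB, 2374 to 2503 with CDMB and 2355 to 2623 with CDEB, against 1828 to 2404 in VC_1. They summed to 2805 to 2993 with DDEB, against 2328 to 3030 in VC_2. The bile duct sum and the stellate cell and fibroblast sum were each highest of their group on each of the 4 arrays. The hepatocyte sum was lowest of its group on DDMB 2, VC_1 3 and VC_2 3 but not on DDEB 3, at 2851. All CDMB and CDEB bile duct sums lay below those of VC_1. Of the 4 arrays DDEB 3 lay alone on its slide, so there slide and deviation cannot be told apart. The others shared a slide with the rest of their group. What sets the 4 arrays apart was not tested.

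The compounds were compared with each other at the same dose and time in 6 pairs, with p-values adjusted over all genes within each pair. Where DDEB is one of the pair, the value is the difference of the effects over each compound's own control. DDMB and CDMB differed in Col5a3, and DDMB and CDEB in Ogn. Col5a3 was lower with DDMB than with CDMB by -0.88 (log2, 95% interval -1.19 to -0.57; limma, adjusted p = 0.0130), where 0.705% of all genes were called and 0.403% were called lower. The call was lost without DDMB 2 (adjusted p = 0.0684), DDMB 3 (0.0737), CDMB 2 (0.0722) or CDMB 3 (0.0603). These compounds lay on different slides, and with slide as a random block the adjusted p was 1. It was 0.0631 with normexp and 0.184 with only the compared arrays.

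Ogn was lower with DDMB than with CDEB by -1.06 (95% interval -1.54 to -0.57; limma, adjusted p = 0.0258), where 3.22% of all genes were called and 1.69% were called lower. The call was lost without DDMB 3 (adjusted p = 0.0616), CDEB 1 (0.0584), CDEB 2 (0.10) or CDEB 3 (0.103). These compounds also lay on different slides, and with slide as a random block the adjusted p was 1. It was 0.0736 with no filter, 0.138 with the mean of probes and 0.0916 with only the compared arrays. No member was called for CDEB against CDMB, nor for the DDEB effect against that of DDMB, CDMB or CDEB. By limma 0 members were called in those 4 comparisons, where 0%, 0%, 0% and 0.00927% of all genes were called. At an unadjusted p under 0.05 stood 6, 5, 2 and 1 members, and 1018, 1249, 1251 and 1432 of all 21574 genes. Among these comparisons, Omd, DDEB effect minus DDMB effect, was -0.09 (95% interval -0.38 to 0.20). Ogn, CDEB against CDMB, was 0.77 (0.28 to 1.25, limma, adjusted p = 0.619).

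**Figure D4:**
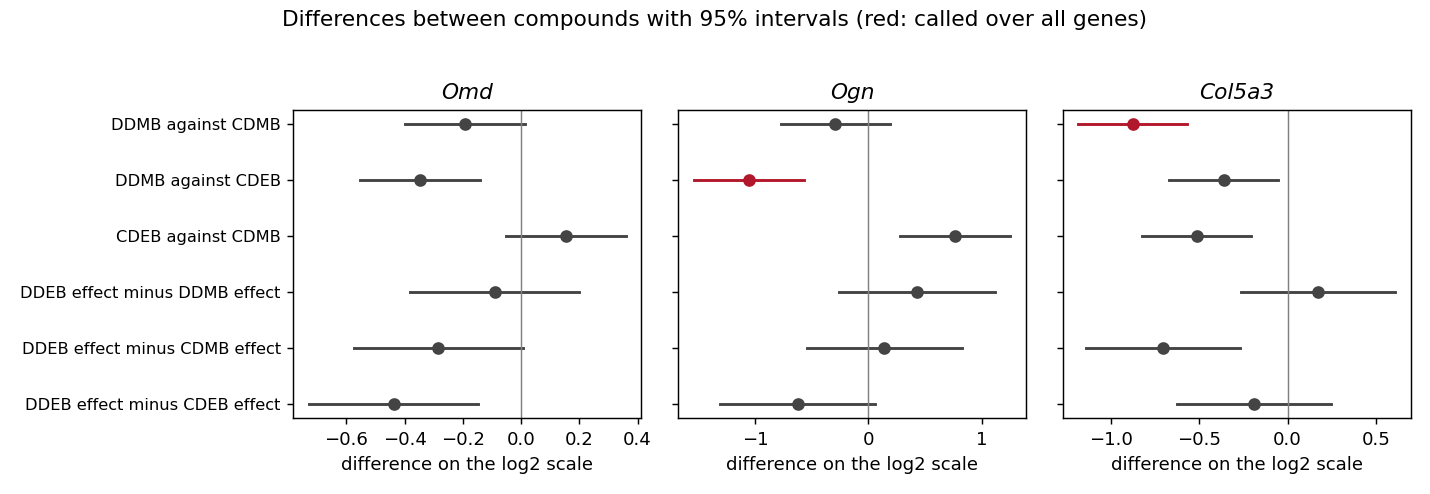
Difference between compounds (log2) for Omd, Ogn and Col5a3 in 6 comparisons, with 95% intervals and called differences in red. Col5a3 for DDMB against CDMB and Ogn for DDMB against CDEB are the called ones.

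Other genes of the matrix and of adhesion were taken from 5 lists of 93 genes, of which 63 were measured. Of these, 0 were called with DDMB, DDEB or CDMB by limma. At an unadjusted p under 0.05 stood 9, 7 and 12 of them, where 2136, 3278 and 2863 of all 21574 genes did. With CDEB 11 of them stood there, where 2870 of all genes did. With CDEB 1 list gene was called, where 0.134% of all genes were called. That gene, Tln2, encodes a talin, which couples integrins to actin, and rose by 0.47 (limma, adjusted p = 0.0266). With any 1 array of CDEB or VC_1 left out, 0 list genes were called with CDEB, as with normexp, no filter, the mean of probes, a random slide block, only the compared arrays or the deposited tables. The list medians were 0.01 with DDMB, 0.05 with DDEB, -0.04 with CDMB and 0.01 with CDEB. Timp2, an inhibitor of matrix metalloproteinases, differed by -1.12 with DDMB (limma, adjusted p = 0.0680), -1.07 with CDMB (limma, adjusted p = 0.156) and -0.56 with DDEB. Cd44, a hyaluronan receptor, differed by -1.35 with CDMB and -1.40 with CDEB (limma, adjusted p = 0.358 and 0.338).

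The 2 DMSO controls also differed in level, and there the chip lot and the cultures cannot be told apart, so no test was made. Of the 52 members, 15 lay higher and 2 lower in VC_2 than in VC_1 without overlap (32.7%, all genes 36.9%). At least 2-fold apart were 6 members (11.5%, all genes 5.54%), namely Itgam, Krt15, Krt75, Krt80, Krt5 and Krt25. Itgam, Krt15 and Krt75 were well above background on 0 VC_1 arrays, and these genes, Krt5 and Krt25 passed the filter on dim probes only through the lot of VC_2 and DDEB, so the count over the members carries no weight. Of these only Krt80 was measured on all VC_1 arrays. Krt18 lay 0.69 higher and Col5a3 0.89 higher in VC_2.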

How the data were processed

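The arrays' spot brightness was extracted by Agilent Feature Extraction 10.7.1.1, per the file headers, and its processed intensity, already background-corrected, was the starting value. The deposited tables of the authors hold linear signal whose scaling the sources used here do not state, and they served only as an alternative. Accessions without version were matched to the RefSeq gene table, which named 21109 of 45598 probes. Of each array, log2 intensity minus its 75th percentile was taken. Probes with every spot flagged on any array were dropped (435). Probes well above background on 3 arrays of any group were kept, with the brightest one standing for its gene (21574 genes). limma 3.58.1 (R 4.3.3; lmFit, eBayes) fitted 6 group means to the 18 arrays, leaving 12 residual degrees of freedom. P-values were adjusted by Benjamini-Hochberg over all genes, with a call below 0.05. Errors are that fit's standard errors, intervals are 95% intervals, and the number of arrays limits the precision. The code was tested on simulated data. Alternatives changed the normalization, background correction (normexp, on the median signal), filter, probe summary, slide and replicate blocks and arrays used.

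Members named are those called in any comparison, the 3 per family with the largest change for each compound, and the brightest of each family. The change of a named member is not printed for every compound for which it was taken. Of the genes this rule takes, 2 are not reported here. Others were named after their values were seen. Members and lists were chosen with earlier results of these data known.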

Additional observations from a re-analysis of the deposited data

How the results depend on the processing

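Omd with DDMB kept its call in every alternative except the fit on the compared arrays alone. With DDEB Omd kept its call in every alternative except that fit and the authors' tables, which hold VC_2 and DDEB apart from the other groups. Leaving out 1 array at a time gave adjusted p of 0.00599 to 0.0444 with DDMB and 0.0102 to 0.022 with DDEB. Members called with DDMB against VC_1, reported as 2, numbered 1 with quantile normalization, with no filter, with the mean of probes and with the deposited tables, 0 with only the compared arrays, and 1 to 2 with an array left out. With DDEB against VC_2, reported as 1, they numbered 0 with only the compared arrays and with the deposited tables, 2 without the 4 arrays that stood apart, and 1 to 2 with an array left out. For DDMB against CDMB, reported as 1, they numbered 0 with normexp, with a random slide block and with only the compared arrays, 3 without the 4 arrays, and 0 to 1 with an array left out. Without the 4 arrays 595 of all genes were called there. For DDMB against CDEB, reported as 1, members called numbered 6 with normexp, 5 with the deposited tables, 3 with the replicate block, 7 without the 4 arrays, 0 with no filter, with the mean of probes, with a random slide block and with only the compared arrays, and 0 to 2 with an array left out. All genes called there were 1438 with normexp, 1240 with the deposited tables, 1233 with the replicate block and 2009 without the 4 arrays. As reported they were 695. The reported fit did not pair arrays by replicate number, and no comparison had all 3 correlations of same-numbered arrays above 0.1. For DDEB against VC_2 these were 0.43, 0.096 and 0.49, while differently numbered arrays gave -0.48 to 0.27. With the replicate block 436 genes were called there, against 213 as reported, and 1233 against 695 for DDMB against CDEB. Whether the numbers pair the cultures was not tested. All genes called ranged over 0 to 342 with DDMB, 0 to 436 with DDEB, 0 to 60 with CDMB, 0 to 78 with CDEB, 0 to 595 for DDMB against CDMB and 0 to 2009 for DDMB against CDEB. The cause of these differences was not tested.

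Of 1512 single-gene values under alternatives, 45 reversed, all of them of differences that were not called. Quantile normalization gave Itgb1 -0.063 with DDMB, and Krt18 -0.073 with CDMB and -0.0084 with CDEB. Normexp gave, with CDEB, Col5a3 0.17, Krt71 0.24, Ogn 0.058 and Vim -0.0088. The mean of probes gave Krt18 0.061 with DDMB, Itgb1 0.057 and Lama5 -0.23 with DDEB, and Omd 0.02 for the DDEB effect minus the DDMB effect. A fixed slide block gave Lamc1 -0.031 with DDEB. Without the 4 arrays Itgbl1 was -0.42 and Vim 0.051 with DDMB, Krt18 -0.036 and Vim 0.012 with CDMB, and Krt20 0.27 with CDEB. With an array left out the values that turned ranged, with DDMB, over -0.052 to 0.061 for Col18a1, -0.25 to 0.55 for Dcn, -0.017 to 0.091 for Itgb1, -0.25 to 0.70 for Itgbl1, -0.099 to 0.055 for Krt18, -1.08 to 0.0071 for Krt20, -0.15 to 0.11 for Lamc1 and -0.13 to 0.015 for Vim. With DDEB they ranged over -0.083 to 0.050 for Itgb1 and -0.031 to 0.25 for Lamc1. With CDMB they ranged over -0.027 to 0.12 for Col18a1, -0.036 to 0.12 for Krt18 and -0.053 to 0.012 for Vim. With CDEB they ranged over -0.14 to 0.076 for Col5a3 and -0.71 to 0.27 for Krt20. The DDEB effect minus the CDMB effect on Ogn ranged over -0.023 to 0.35. The fixed slide block could be fitted only where the compared groups share a slide.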
